A study of Homo sapiens with 7 samples.

Results

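CEP72, PGAM2, ZMYND19 and HTT are 4 of 19630 human protein-coding genes, and their transcription end sites (TES) were examined in chromatin immunoprecipitation sequencing (ChIP-seq) for polymerase II that carries a phosphate on threonine 4 of its tail repeats (pThr4). The 4 genes were chosen by measured values of these data. A window of 1000 bp on either side of each TES held a peak in all 3 libraries treated with active SCP1 and in none of the 3 treated with inactive SCP1. The same pattern was found at 826 of the 19630 TES windows (4.21%). Because the genes were chosen for this difference, their values are given as a description and no test was made on them.

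All libraries came from nuclear lysate of HEK293, an established human embryonic kidney cell line, divided into aliquots that received phosphatase in vitro. The active group received wild-type SCP1 (SCP1 WT) and the inactive group received the catalytically dead mutant SCP1 D96A, with 3 biological replicates each. Both groups were then immunoprecipitated with the same pThr4 antibody, clone 6D7, and the comparison asked where pThr4 is hidden from the antibody by a phosphate on the neighbouring serine 5. A nonspecific IgG library was not analysed here, and peak lists hold no expression values against which the cell line could be checked.

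The largest subunit of RNA polymerase II ends in a long tail of repeated heptads, the C-terminal domain, whose phosphates change as the enzyme moves along a gene. Phosphate on serine 5 is placed near the start of transcription, and SCP1 (CTDSP1) is a small phosphatase that prefers this residue. Phosphate on threonine 4 is known for polymerase near and beyond gene ends. There the nascent RNA is cut downstream of a poly(A) signal, and the polymerase transcribes on for some distance before it is released.

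Each library had its own deposited list of broad peaks, and the 6 lists differed in length and in how weak a peak they admitted. In replicates 1, 2 and 3 there were 12625, 6680 and 36892 listed peaks with active SCP1, against 2466, 1163 and 2699 with the mutant. These counts are of peaks on the autosomes and the X chromosome, the only ones used. The lowest listed −log10 p-value was 3.08 to 3.79 in the active lists and 4.2 to 4.6 in the inactive lists. An active list could therefore hold a peak that was too weak to enter any inactive list. This was so at 211 of the 826 windows (25.5%), where at least 1 active peak had a −log10 p-value below 4.20. Read counts are not part of the lists. Depth is therefore unknown, and the precision rests on the 3 libraries per group. With every list reduced to its 1163 strongest peaks, 69 windows met the rule in place of 826, and 194 did with peaks whose −log10 p-value was 6 or more. Without active replicate 2, the library with the fewest active peaks, 1757 windows met it.

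The sequences shown are the ends of the principal transcripts and the promoters whose starts share the peaks. The last 30 bases of the principal (MANE Select) transcript of each gene are given 5′ to 3′ from GENCODE, with a poly(A) signal (AATAAA or its variant ATTAAA) in capitals.
CEP72: atttAATAAAcaaatacattgttctgaaaa
PGAM2: gcttgggcAATAAAggcacctcccccaaca
ZMYND19: ccacaaaggcaaagtaaaggggtggaatca
HTT: atccaaATTAAAggaaaaaaatggaaacca
CEP72 and PGAM2 carry AATAAA, whose first base lies 26 and 22 bases from the transcript end. The CEP72 sequence belongs to its MANE Select end, 23063 bp before the RefSeq end at which its window was set, and is not the sequence under the peak described. HTT carries ATTAAA at 24 bases, and the last 30 bases of ZMYND19 held neither form. Of 18922 MANE Select transcripts, 58.1% held AATAAA and 15.7% held ATTAAA in this stretch.

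Starts of 3 genes lay under the active peaks of all replicates at these loci, PGAM2's own start and those of DPH7 and MSANTD1. Their promoters, from 250 bp before to 50 bp after the start, are taken from the RefSeq promoter table of GRCh38.p14 and are written 5′ to 3′ on the strand of the gene. Capitals mark TATAAA (the TATA box), CCAAT (the CCAAT box) and GGGCGG (the GC box). Each was searched on both strands, so the TATA box also reads TTTATA, the CCAAT box ATTGG and the GC box CCGCCC.
PGAM2 promoter, chr7:44065518-44065817, minus strand: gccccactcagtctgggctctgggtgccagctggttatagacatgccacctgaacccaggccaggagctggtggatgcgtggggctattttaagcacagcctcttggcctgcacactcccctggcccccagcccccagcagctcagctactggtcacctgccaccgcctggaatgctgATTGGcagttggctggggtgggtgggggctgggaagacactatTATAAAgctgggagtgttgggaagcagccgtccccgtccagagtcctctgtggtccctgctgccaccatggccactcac
DPH7 promoter, chr9:137578876-137579175, minus strand: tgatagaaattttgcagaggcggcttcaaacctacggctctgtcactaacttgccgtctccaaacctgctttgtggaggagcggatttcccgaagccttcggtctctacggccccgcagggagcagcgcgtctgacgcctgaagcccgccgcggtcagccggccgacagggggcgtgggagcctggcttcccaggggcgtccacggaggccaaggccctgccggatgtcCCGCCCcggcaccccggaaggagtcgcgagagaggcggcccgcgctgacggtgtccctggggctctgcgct
MSANTD1 promoter, chr4:3244119-3244418, plus strand: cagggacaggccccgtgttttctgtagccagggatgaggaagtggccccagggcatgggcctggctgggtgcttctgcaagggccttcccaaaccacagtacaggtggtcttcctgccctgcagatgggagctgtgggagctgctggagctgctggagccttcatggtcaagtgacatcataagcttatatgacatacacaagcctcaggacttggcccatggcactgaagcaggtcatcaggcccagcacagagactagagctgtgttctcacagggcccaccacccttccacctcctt
The PGAM2 promoter held a TATAAA that begins 29 bp before the start and an ATTGG that begins 72 bp before it. The DPH7 promoter held 1 CCGCCC that begins 21 bp before the start, and the MSANTD1 promoter held none of the 3 motifs. Of 35116 RefSeq promoters, 11.5% held TATAAA, 34.6% CCAAT and 45.0% GGGCGG. The GC content of the 3 promoters was 62.3%, 67.7% and 58.3%, beside a median of 58.7% over all promoters.

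The inactive lists were empty in all 4 TES windows but not at all 4 loci. At CEP72, PGAM2 and ZMYND19 each of the 3 inactive lists held a peak inside the span of the active peaks, and that peak stopped short of the window. The nearest inactive peak ended 1396 bp from the CEP72 window, 154 bp from the PGAM2 window and 196 bp from the ZMYND19 window. At HTT no inactive list held a peak in the gene or in the 20 kb after it, and the nearest inactive peak lay 251137 bp from the window. These gaps were measured after the lists had been seen. So at 3 of the 4 genes the lists differed in how far a peak reached, and at HTT they differed in whether a peak was listed.

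**Figure D1:**
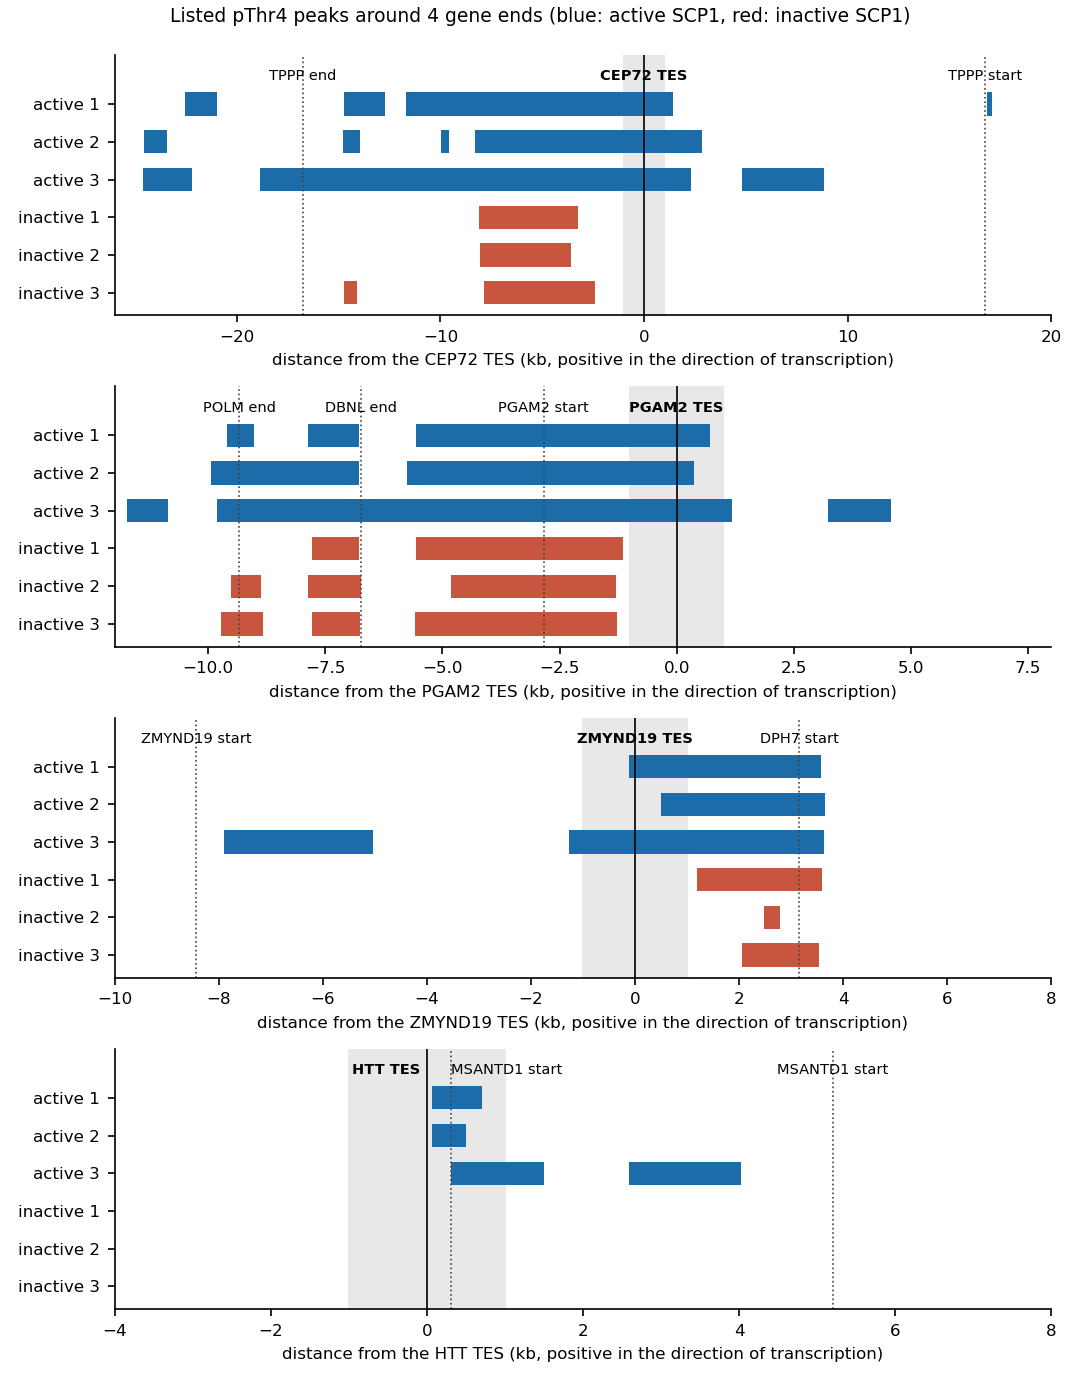
Listed pThr4 peaks at CEP72, PGAM2, ZMYND19 and HTT, 1 row per library, by distance from the TES in kb (positive in the direction of transcription). Blue bars are peaks with active SCP1, red bars peaks with inactive SCP1, the grey band is the TES window of 1000 bp on either side, and dotted lines are starts and ends of genes. No red bar reaches the grey band, the nearest one lies 154 to 1396 bp outside it at the upper 3 loci, and the HTT panel has none.

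CEP72 encodes a centrosomal and centriolar satellite protein and had the strongest peaks of the 4 genes. RefSeq places it on the plus strand at chr5:612340-676616, a length of 64277 bp. The active peak over its TES began 11707, 8281 and 18864 bp before the TES and ended 1403, 2849 and 2321 bp after it in replicates 1, 2 and 3. The span past the TES was 2191 bp ± 732 (SD, n = 3), and most of each peak lay inside the RefSeq gene. The fold enrichment of this peak (column 7 of the list, the enrichment over background) was 6.43, 5.97 and 5.91, with a mean of 6.11 ± 0.287 (SD, n = 3). Its −log10 p-value (column 8) was 16.8, 14.4 and 14.6, with a mean of 15.3 ± 1.31 (SD, n = 3). In every active list it stood in the top 1% of peaks by −log10 p-value, at rank 47, 58 and 132.

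In the inactive lists the main CEP72 peak ran from 8130 to 3255 bp before the TES in replicate 1, from 8079 to 3575 bp in replicate 2 and from 7879 to 2396 bp in replicate 3. These 3 peaks lay inside the corresponding active peak and were 4955 bp ± 494 (SD, n = 3) wide, against 15143 bp ± 5326 (SD, n = 3) for the active peaks. Their fold enrichment was 5.23, 4.32 and 5.43, each below every active value. Their −log10 p-value was 10.5, 8.10 and 11.0, also below the active range. CEP72 stood at rank 1 of the 826 windows by its lowest active fold enrichment. Active values above the inactive ones were thus favoured by the choice of the gene and are a description only. Because fold enrichment has no common scale across libraries and depth is unknown, no difference between the groups is read from either measure. Inactive replicate 3 listed a second, small peak from 14747 to 14077 bp before the TES, and active replicates 1 and 2 listed separate peaks that overlapped the same place. All 3 inactive lists thus held a pThr4 peak before the RefSeq end of CEP72 and none in the 20 kb after it. The MANE Select end lies 23063 bp before the RefSeq end, and these main peaks lie after that earlier end.

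The end of CEP72 depends on the annotation. Its MANE Select transcript spans 41214 bp, 23063 bp less than the RefSeq gene. Which transcripts set the RefSeq end was not examined. If the MANE span is counted from the RefSeq start, the end falls at 653553, and the window there also held a peak in 3 active and no inactive lists. Relative to that end (negative is before it), those peaks ran from 537 to 2104 bp, from −1511 to −382 bp and from −1529 to 852 bp. The peaks of replicates 1 and 2 did not overlap, so this was not 1 shared peak. Their fold enrichment was 3.29, 3.57 and 3.11 and their −log10 p-value 4.69, 4.71 and 3.94 in replicates 1, 2 and 3, far below the values at the RefSeq end. The value of 3.94 lay below 4.20, the lowest that any inactive list admitted, so such a peak could not have been listed there. The stretch between both ends overlaps TPPP, which encodes a tubulin polymerization-promoting protein and runs the opposite way at chr5:659862-700727. The end of TPPP lay 16754 bp before the CEP72 TES and was under a peak in active replicate 3 alone. A TPPP start lay 16736 bp after the TES. It was under no peak, and active replicate 1 listed a peak of 269 bp from 16818 to 17086 bp after the TES, over the left edge of the noncoding gene LOC101929898 at 16924 bp. ChIP-seq has no strand, so signal from CEP72 and from TPPP cannot be told apart here.

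Peaks covered 35.8%, 20.1% and 59.7% of the CEP72 gene in active replicates 1, 2 and 3 and 7.59%, 7.01% and 11.3% in the inactive replicates. Over the 20 kb after the TES they covered 8.36%, 14.2% and 31.7% in the active lists and 0% in all 3 inactive lists. Active replicate 3 stood highest in both stretches, and it is also the longest list. The groups did not overlap in either stretch, and neither did they in the bases covered over the autosomes and the X chromosome. Those were 8.94 to 46.8 Mb with active and 1.36 to 3.20 Mb with inactive SCP1. The start of CEP72, 64276 bp before the TES, had no peak within 1000 bp in any list. LOC102724994, a pseudogene within the RefSeq span of CEP72 whose edges lay 22769 and 19437 bp before the TES, had a peak within 1000 bp of its left edge in 3 active lists and no inactive list.

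PGAM2 encodes the muscle form of phosphoglycerate mutase, an enzyme of glycolysis, and is so short that 1 peak covered it whole. It lies on the minus strand at chr7:44062727-44065567, a length of 2841 bp that equals its MANE Select span. The active peak began 5570, 5752 and 9819 bp before the TES and ended 711, 378 and 1188 bp after it in replicates 1, 2 and 3. The span past the TES was 759 bp ± 407 (SD, n = 3), the shortest of the 4 means, and replicate 3 reached farthest. The fold enrichment was 5.10, 5.24 and 6.36, with a mean of 5.57 ± 0.690 (SD, n = 3). The −log10 p-value was 8.92, 9.39 and 13.1, with a mean of 10.5 ± 2.30 (SD, n = 3). Replicate 3 gave the highest value of both measures.

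The inactive peaks at PGAM2 covered its start and stopped within the gene. They ran from 5571 to 1154 bp before the TES in replicate 1, from 4813 to 1297 bp in replicate 2 and from 5588 to 1264 bp in replicate 3. On the upstream side they began within 1 bp of the active peak in replicate 1 and later than it in replicates 2 and 3. Their far edges fell within 143 bp of one another, 154 to 297 bp outside the window. Their fold enrichment was 5.35, 4.54 and 5.21, which overlaps the active values. Their −log10 p-value was 8.95, 7.23 and 8.37, and the highest of these exceeded that of active replicate 1. Peaks covered 100% of PGAM2 in every active list and 59.4%, 54.3% and 55.5% in the inactive lists. Its start, 2840 bp before the TES and shown above with its TATAAA, was under a peak in all 6 lists. After the TES the active lists covered 3.56%, 1.89% and 12.6% of 20 kb and the inactive lists 0%. The groups did not overlap in either stretch, as they did not in the bases covered over all chromosomes used, given above for CEP72.

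PGAM2 lies within DBNL, a gene for a drebrin-like actin-binding adaptor that is transcribed the opposite way at chr7:44044702-44069456. The end of DBNL lay 6729 bp before the PGAM2 TES and was under a peak in active replicate 3 alone, while the peaks of the other 5 lists beyond it stopped 6746 to 6782 bp before the TES. DBNL also has shorter transcripts. In GENCODE, 13 of its 22 transcripts end within 2000 bp after the end of PGAM2, the nearest 1011 bp away, so the gene end studied here lies close to ends on the other strand too. The start of DBNL, 18025 bp after the PGAM2 TES, MIR6837 at 10898 to 10961 bp and the end of LINC00957 at 18431 bp had no peak within 1000 bp in any list. POLM, which encodes DNA polymerase mu, was looked at after its values were seen because the longest peak reached it. Its end, 9335 bp before the PGAM2 TES, was under a peak in 3 active and 2 inactive lists.

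ZMYND19 encodes a zinc finger protein of the MYND type and had active peaks that lay mostly after the TES. It lies on the minus strand at chr9:137582081-137590512, a length of 8432 bp that equals its MANE Select span. The active peak ran from 119 bp before to 3583 bp after the TES in replicate 1, from 498 to 3657 bp after it in replicate 2, and from 1260 bp before to 3635 bp after it in replicate 3. The far edges fell within 74 bp of one another, at 3625 bp ± 38 (SD, n = 3), while the near edges spread over 1758 bp. The fold enrichment was 5.42, 4.99 and 5.49, with a mean of 5.30 ± 0.269 (SD, n = 3). The −log10 p-value was 11.2, 9.23 and 11.6, with a mean of 10.7 ± 1.27 (SD, n = 3).

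The common far edge lay just past the start of DPH7, a gene of diphthamide synthesis on the same strand at chr9:137554444-137578925. The DPH7 start in the RefSeq gene table lay 3156 bp after the ZMYND19 TES, and a second start in the promoter table lay 3489 bp after it. Both were under a peak in 3 active and 2 inactive lists. The inactive peaks ran from 1196 to 3590 bp after the TES in replicate 1, from 2481 to 2777 bp in replicate 2 and from 2055 to 3540 bp in replicate 3. Their widths of 2395, 297 and 1486 bp were each below the active widths of 3703, 3160 and 4896 bp. Their fold enrichment was 5.77, 3.54 and 4.63, and the highest of these exceeded every active value. Their −log10 p-value was 10.7, 5.40 and 7.26. At this locus both groups therefore listed a peak next to the DPH7 promoter shown above, and the active peaks reached farther back toward ZMYND19.

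Within ZMYND19 itself little was listed. Peaks covered 1.42%, 0% and 49.0% of the gene in active replicates 1, 2 and 3 and 0% in the inactive lists, and most of the third value came from a separate peak in replicate 3 with a fold enrichment of 2.99. The start of ZMYND19, 8431 bp before the TES, was under no peak and had 1 active list with a peak within 1000 bp. Over the 20 kb after the TES the active lists covered 17.9%, 15.8% and 29.0%, and the inactive lists 12.0%, 1.49% and 7.43%. The groups did not overlap here, and neither did they in the bases covered over the autosomes and the X chromosome, 8.94 to 46.8 Mb with active and 1.36 to 3.20 Mb with inactive SCP1.

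HTT encodes huntingtin, a large scaffold protein whose glutamine repeat is expanded in Huntington's disease, and had the weakest and smallest peaks of the 4 genes. It lies on the plus strand at chr4:3074681-3243960, a length of 169280 bp. The peak ran from 67 to 706 bp after the TES in active replicate 1, from 66 to 496 bp in replicate 2 and from 313 to 1506 bp in replicate 3. No peak covered the TES itself, and the far edge lay at 903 bp ± 533 (SD, n = 3). The fold enrichment was 4.20, 3.32 and 3.16, with a mean of 3.56 ± 0.555 (SD, n = 3). The −log10 p-value was 6.12, 4.10 and 4.09, with a mean of 4.77 ± 1.17 (SD, n = 3). The values of replicates 2 and 3 lay below 4.20, the lowest value that any inactive list admitted, so a peak of that strength could not have been listed there.

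The HTT peaks lay on the start of another gene. MSANTD1, a gene for a Myb/SANT-like domain protein on the same strand at chr4:3244273-3256613, starts 313 bp after the HTT TES in the RefSeq gene table and 409 bp after it in the promoter table. Both starts were under a peak in 3 active and no inactive lists, so an HTT end and an MSANTD1 start cannot be told apart in these peaks. A further MSANTD1 start at 5199 bp and the MSANTD1 end at 12653 bp had no peak within 1000 bp. Active replicate 3 listed 1 more peak, from 2588 to 4026 bp after the TES. The HTT start, 169279 bp before the TES, had no peak within 1000 bp in any list, and neither had the small pseudogene RNU7-33P near it. Peaks covered 0.517%, 0% and 1.31% of the gene in active replicates 1, 2 and 3, and over the 20 kb after the TES 3.20%, 2.16% and 13.2%. The inactive lists covered 0% of both. They also covered fewer bases than any active list over all chromosomes used, as given above for CEP72.

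**Figure D2:**
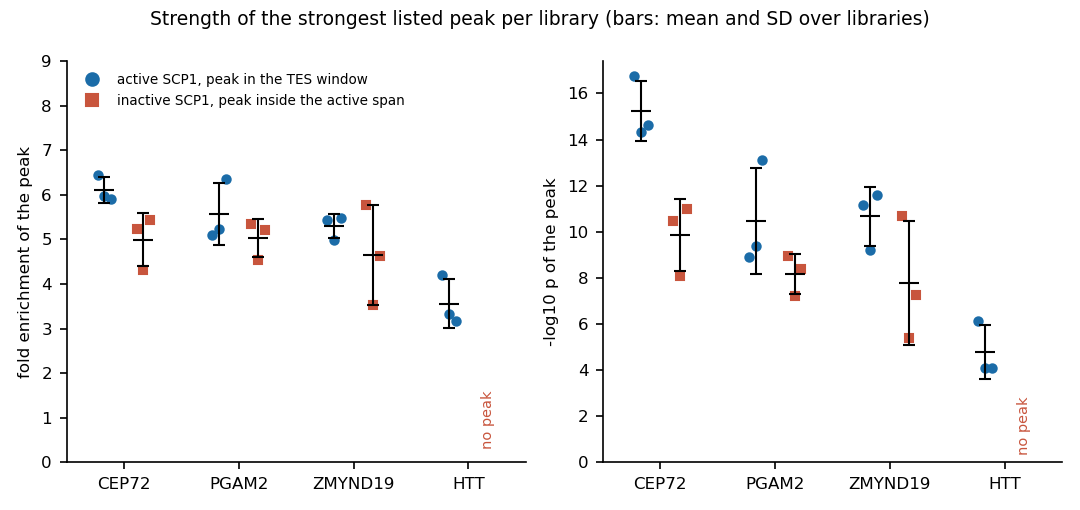
Fold enrichment (left) and −log10 p-value (right) of the strongest listed peak of each library at CEP72, PGAM2, ZMYND19 and HTT. Blue circles are active libraries with the peak in the TES window, red squares are inactive libraries with their strongest peak inside the span of the active peaks, and bars give the mean and SD of 3 libraries. The red squares lie below the blue circles in both panels at CEP72 alone, the window at rank 1 by its lowest active fold enrichment. They overlap the circles at PGAM2 and ZMYND19, and are missing at HTT. No difference between the groups is read from the panels, because fold enrichment has no common scale across libraries and depth is unknown.

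The 4 genes were ordered among the 826 windows by their lowest fold enrichment over the active lists, a value from the same contrast that chose them. CEP72, PGAM2 and ZMYND19 stood at ranks 1, 2 and 3 with 5.91, 5.10 and 4.99, and HTT stood at rank 646 with 3.16. The windows next in order were those of SLFNL1 with 4.94 and NDUFAF8 with 4.73. They resembled the 3 genes above them in that all 3 inactive lists held a peak inside the active span, 507 bp from the window at SLFNL1 and 519 bp at NDUFAF8. On either side of HTT stood TSEN54 and GTSE1, both with 3.16. There too no inactive list had a peak inside the active span, and the nearest inactive peak lay 21843 and 23059 bp away.

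Over all 826 windows, the 3 inactive lists all held a peak inside the span of the active peaks at 92 (11.1%), and none did at 528 (63.9%). The remaining windows had 1 such list at 117 and 2 at 89. CEP72, PGAM2 and ZMYND19 belong to the first set and HTT to the second. The nearest inactive peak lay within 1000 bp of the window edge at 210 of the 826 (25.4%), PGAM2 and ZMYND19 among them, and the median distance was 17094 bp. A start of another protein-coding gene was under the peak in all active lists at 66 of the 826 (7.99%), which include ZMYND19 and HTT. Such a start was found at 109 of the 663 windows with a peak in all 6 lists (16.4%). Active peaks were wider there, with a median width of 4800 bp against 2405 bp at the 826 windows. A wider peak can cover more starts, so nothing is read from these shares.

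**Figure D3:**
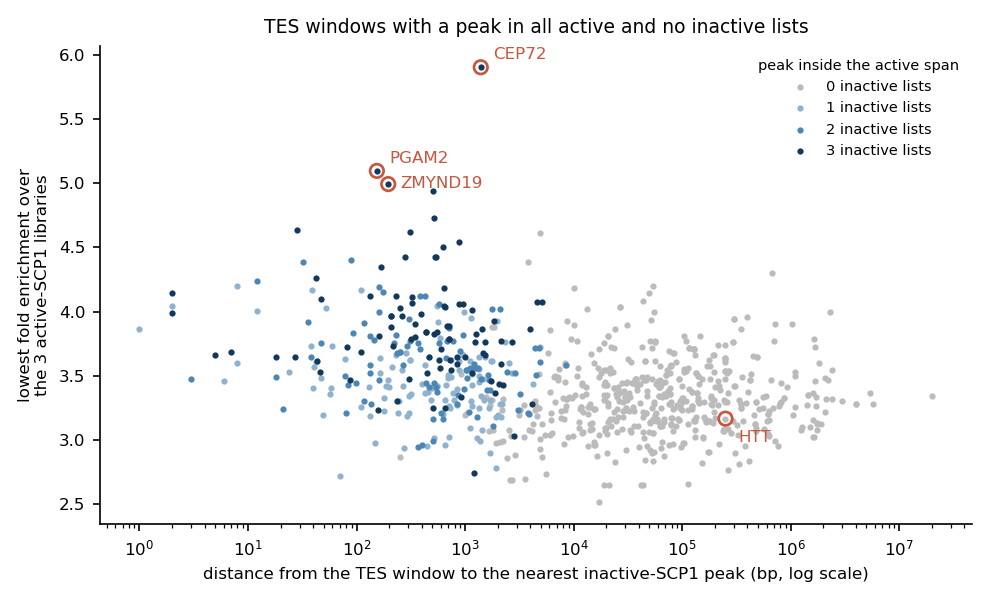
Each point is 1 of the 826 active-only TES windows, placed by the distance to the nearest inactive peak in bp (log axis) and by the lowest fold enrichment over the 3 active libraries. Darker points have more inactive lists with a peak inside the span of the active peaks, and red rings mark CEP72, PGAM2, ZMYND19 and HTT. The 3 genes with a lowest fold enrichment of 4.99 to 5.91 are dark points 154 to 1396 bp from an inactive peak, and HTT with 3.16 is a pale point at 251137 bp.

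In peak size and reach the 4 genes did not form 1 class. The median width of the active peaks was 2405 bp over the 826 windows, from 1308 bp at the lower to 3879 bp at the upper quartile. CEP72 with 15143 bp and PGAM2 with 7807 bp stood at the 99.8th and 95.5th percentile, ZMYND19 with 3920 bp at the 75.3rd and HTT with 755 bp at the 8.11th. The median far edge was 1555 bp past the TES. ZMYND19 and CEP72 stood above it, at the 86.8th and 69.0th percentile, and HTT and PGAM2 below it, at the 28.2nd and 23rd. The median mean −log10 p-value was 5.23, and that of the 663 windows with a peak in all 6 lists was 8.60. CEP72, PGAM2 and ZMYND19 with 15.3, 10.5 and 10.7 were above both medians, and HTT with 4.77 was below both.

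Relatives of the 4 genes were read from lists of related genes, chosen for their function and not for their peaks. Of 12 centrosome and centriolar satellite genes, CEP72 and CEP131 had the active-only pattern, PCNT had a peak in all 6 lists and 8 had none. CEP131, a satellite protein, had a fold enrichment of 3.93, 3.44 and 3.93. PCNT, the scaffold pericentrin, had values of 3.57, 3.85 and 3.48 with active SCP1 that overlapped those of 3.80, 3.56 and 3.68 with inactive SCP1. Of the 5 phosphoglycerate mutase genes, PGAM2 alone had the active-only pattern. PGAM1, the form of most tissues, had a peak in all 6 lists, at 4.31, 4.10 and 5.00 with active SCP1 against 4.83, 4.17 and 5.25 with inactive SCP1. PGAM5, a mitochondrial phosphatase of the same fold, also had a peak in all 6, at 4.70, 4.50 and 4.70 with active SCP1 against 3.92, 4.32 and 4.25 with inactive SCP1. Fold enrichment has no common scale across libraries, so no difference between the groups is read from these values.

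Of 15 genes for MYND-type and related zinc fingers, ZMYND19 alone had the active-only pattern, and 8 had no peak. DEAF1, a transcription factor, had a peak in all 6 lists, at 4.41, 4.04 and 4.83 with active SCP1 against 4.54, 4.07 and 4.22 with inactive SCP1. ANKMY1 had 3 active lists and 1 inactive list, and ZMYND8, a chromatin reader, had 2 active lists. Of 14 genes for huntingtin and proteins that bind it, HTT alone had the active-only pattern. HIP1R, an endocytic adaptor, had a peak in 3 active and 2 inactive lists, and HYPK, a chaperone-like partner, in 2 active lists and 1 inactive list. Without the 4 genes, 1 of 42 relatives had the active-only pattern (2.38%), beside 4.21% of all protein-coding genes, and 26 of 42 had no peak in any list (61.9%), beside 67.7%. Both shares lie near those of all genes. A peak in all 6 lists was found at 4 of 42 relatives (9.52%), beside 3.38% of all protein-coding genes. No test was made, and nothing about the families is read from these shares.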

How the data were processed

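The pThr4 ChIP-seq peak lists of 6 HEK293 libraries (3 with SCP1 WT, 3 with SCP1 D96A) were analysed. Per the labels, reads were paired-end, and the submitters' processing notes name FastQC, cutadapt 4.6, Bowtie2 2.5.2 and hg38. The peak caller's version, control and read filters are not given in the sources used here. The authors deposited, per library and without pooling, a broad-peak list with a fold enrichment (a ratio to background), a −log10 p-value and a −log10 q-value for each peak. Deposited −log10 q-values began just above 1 in every list, so each has its own floor in p, and fold enrichment has no common scale across libraries. Depth is unknown.

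Gene positions came from RefSeq (GRCh38.p14). Only genes and peaks on the autosomes and the X chromosome were used. Strand came from the RefSeq promoter table for 15813 and from GENCODE release 44 for 3817 protein-coding genes, and GENCODE's GRCh37 positions were used only as lengths and distances between transcripts. The TES is the gene's end on its strand. Windows reached 1000 bp to either side, and an overlap of at least 1 bp counted. Distances are from the TES to the peak edge. The counting was tested on simulated data. Python 3.11.15, pandas 2.3.3, numpy 2.4.6 and matplotlib 3.10.9 were used.

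The 4 genes and the lists of related genes were chosen with earlier results of these data known. Named genes are the 4 genes, genes with a start or end in each gene or the 20 kb after it, the windows next in rank, and relatives with a peak in at least 2 active lists. A further relative is not reported here. Cutoffs, window sizes, overlap and left-out libraries were varied. The MANE end, the span of the active peaks and replicates 1 and 2 alone were added after seeing the data.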

Additional observations from a re-analysis of the deposited data

How the results depend on the processing

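Of 262 alternative values, 237 stayed within the spread between replicates, for counts within 1.5 times, or for window calls unchanged. Another 25 moved and 0 reversed. Part of the 237 could not have changed. Leaving out a library cannot alter a window call of the 4 genes, which the rule fixes. Leaving out an inactive library cannot alter a span, fold enrichment or −log10 p-value of active peaks. The share that stayed is therefore no measure of robustness. The 826 active-only windows became 69 with equal peak number (1163 per list), 194 with the common cutoff (−log10 p-value from 6 upward) and 528 when inactive peaks anywhere in the active span counted. Leaving out 1 library gave 850 to 1757, the highest without SCP1 WT replicate 2. The share of active minus that of inactive lists with a peak, 100 percentage points in each TES window, became 0 at CEP72, PGAM2 and ZMYND19 when inactive peaks in the active span counted. With windows of 2000 bp it was 0 at PGAM2 and 66.7 at ZMYND19. At HTT it was 0 with equal peak number, where no peak was left to measure, and 33.3 with the common cutoff or a −log10 q-value from 2 upward, which left 1 library with a fold enrichment of 4.20 and a −log10 p-value of 6.12. The span to the far edge of any peak in the 20 kb after the TES was also taken (mean ± SD, n = 3). It was 9594 bp ± 7148 at CEP72, 1886 bp ± 2329 at PGAM2, 8695 bp ± 8790 at ZMYND19 and 1743 bp ± 1980 at HTT. At PGAM2, ZMYND19 and HTT only active replicate 3 listed such a further peak. At the MANE end of CEP72 the span was 858 bp ± 1243 (SD, n = 3), and the peak of active replicate 2 stopped before that end. The mean fold enrichment there was 3.32 and the mean −log10 p-value 4.45. The covered share at PGAM2, active minus inactive mean, was 10.7 percentage points with 20 kb and 19.0 with 10 kb. The families' active-only windows fell from 5 to 3 with 2000 bp. Peak names of both replicate 3 lists carry another stem than those of replicates 1 and 2. With replicates 1 and 2 alone no span, fold enrichment or −log10 p-value of the 4 genes moved (covered bases were not recomputed there). The window calls could not move there, because the rule that chose the genes fixes them. No paired analysis was possible because the results come from no test. Depth is unknown, and its part in the difference between lists was not tested.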
